A study of Mus musculus with 18 samples.

Results

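Epididymal white fat and liver of obese male C57BL/6J mice were compared on the same high-fat diet, gene by gene. Mice were kept 1 to a cage, entered the diet at 5 weeks of age and stayed on it for 12 weeks, so that tissue was taken at 17 weeks. The study fed 10 mice on each of 3 diets and sequenced polyadenylated RNA of both tissues: ND was the normal diet, HFD was high in fat, and GT was the HFD diet carrying 0.25% green tea ethanol extract by weight. Here the 3 adipose and 3 liver libraries of the HFD group carry the comparison, the GT libraries serve as a second set on the same base diet, and the ND libraries are used only to ask whether the order of the tissues was the same without fat feeding. The labels give no genotype besides the strain. Whether libraries are separate mice, and whether fat and liver of 1 number share a mouse, is not stated in them, so p-values measure the spread between these libraries, which may be partly technical.

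Levels were given by the authors in FPKM, fragment counts divided by transcript length and by the number of mapped fragments of the library. A gene was kept when at least 3 of the 6 HFD libraries reached 1 FPKM, which left 12779 of 23474 genes. Among these, 9168 reached 1 FPKM in all 6 libraries, 2095 were kept through fat alone, 498 through liver alone, and 1018 reached it in part of the libraries of 1 or both tissues. Genes kept through 1 tissue alone had to differ, so counts are also given for the 9168 genes measured in both tissues. The other 10695 genes were not kept, and 4095 of them were listed at 0 in all 6 libraries. Differences below are fat minus liver on the scale log2(FPKM + 1), ± SE from limma, with Benjamini-Hochberg adjusted p over the 12779 genes, and a positive value means a higher level in fat. The added 1 understates differences of genes with low FPKM.

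White fat stores triglyceride in adipocytes, releases fatty acids and glycerol between meals, and secretes hormones such as leptin and adiponectin. The liver makes most plasma proteins and lipoproteins, produces glucose and ketone bodies, and clears nitrogen as urea and cholesterol as bile acids. In obesity, epididymal fat of mice takes up many macrophages, which gather around dying adipocytes and fill with lipid, while the liver stores triglyceride in hepatocytes and keeps its own resident macrophages, the Kupffer cells. In whole-tissue RNA, fewer cells of a type and less RNA per cell cannot be told apart.

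The tissues carried their labelled markers. Summed FPKM of 22 adipocyte markers ran from 25520 to 27630 in fat and from 3273 to 4121 in liver, where most of the sum was carbonic anhydrase 3 (Car3). Of these markers, leptin and perilipin 1 were listed at 0 in liver HFD 2 and 3. Hepatocyte markers, 24 genes, summed to 77600 to 119800 in liver and 1302 to 1364 in fat. Some HFD libraries also held marker RNA of other tissues. A testis list of 24 genes summed to 2599 FPKM in adipose HFD 1, with 19 genes at 10 FPKM or more, against 79.08 and 56.98 in the other adipose libraries. An epididymis list of 13 genes summed to 1493 in adipose HFD 2 and to at most 6.777 in the other 5 HFD libraries. A muscle list of 19 genes summed to 152.6 in liver HFD 2, 34.55 in liver HFD 3 and 2.113 in liver HFD 1. No testis, epididymis or muscle marker passed the test between tissues with all 6 libraries, but without adipose HFD 1 and liver HFD 2, 8 testis markers passed higher in fat and 1 higher in liver, and 1 muscle marker passed higher in fat. Without the same libraries, the call counts of the lists described below moved by at most 2 members in either direction. Adipose HFD 2, with epididymis RNA, and liver HFD 3, with some muscle RNA, stayed in that fit. RNA of other tissues was therefore not fully removed by it.

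Liver RNA was far more concentrated in few genes. In fat, 50% of the summed FPKM was held by 383 to 410 genes, and in liver by 19 to 29 genes. The 13 mitochondrially encoded genes held 11.1 to 13.9% of summed FPKM in fat and 30.4 to 35.3% in liver, although 1 of the 13 was listed at 0 in liver HFD 3. Summed FPKM itself was 527904 to 552100 in fat and 814680 to 930139 in liver, and 12198 to 13421 against 10193 to 10623 genes reached 1 FPKM. Spearman correlations across genes were 0.97 to 0.99 within fat, 0.98 to 0.99 within liver and 0.48 to 0.51 between the tissues, where genes are not independent replicates. The number of reads is not used here, so depth is unknown.

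On high-fat diet, 10774 of 12779 genes (84.3%) passed an adjusted p of 0.05 in limma. Of these, 8528 (66.7% of the genes kept) were higher in fat and 2246 (17.6%) higher in liver. Among genes measured in both tissues the shares were 63.4% and 17.1%. The 3 libraries of fat all lay above those of liver in 67.8% of the genes kept, and all below them in 18.1%. The median difference over all genes was 0.95 as deposited, and it moved with the scaling between libraries, to 1.48 with equal FPKM totals, 0.26 with median ratios and 0.09 with quantile normalization. The share of calls that were higher in fat moved with it, from 79.2% as deposited to 87.1%, 58.9% and 53.4%. A difference is therefore called held where the gene passed in the same direction under all 4 scalings, which was so for 48.3% of genes, 4687 genes (36.7%) higher in fat and 1480 (11.6%) higher in liver. Among genes measured in both tissues, 29.2% were held for fat and 9.15% for liver. These shares, and those of the calls above, are the background for the counts of list members below. Each single gene named below as higher in 1 tissue was held unless it is said not to be, while the counts of list members higher in a tissue include differences that were not held. Genes with similar FPKM in both tissues could pass in either direction under another scaling, so for them the library values are given and no order is read.

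**Figure D1:**
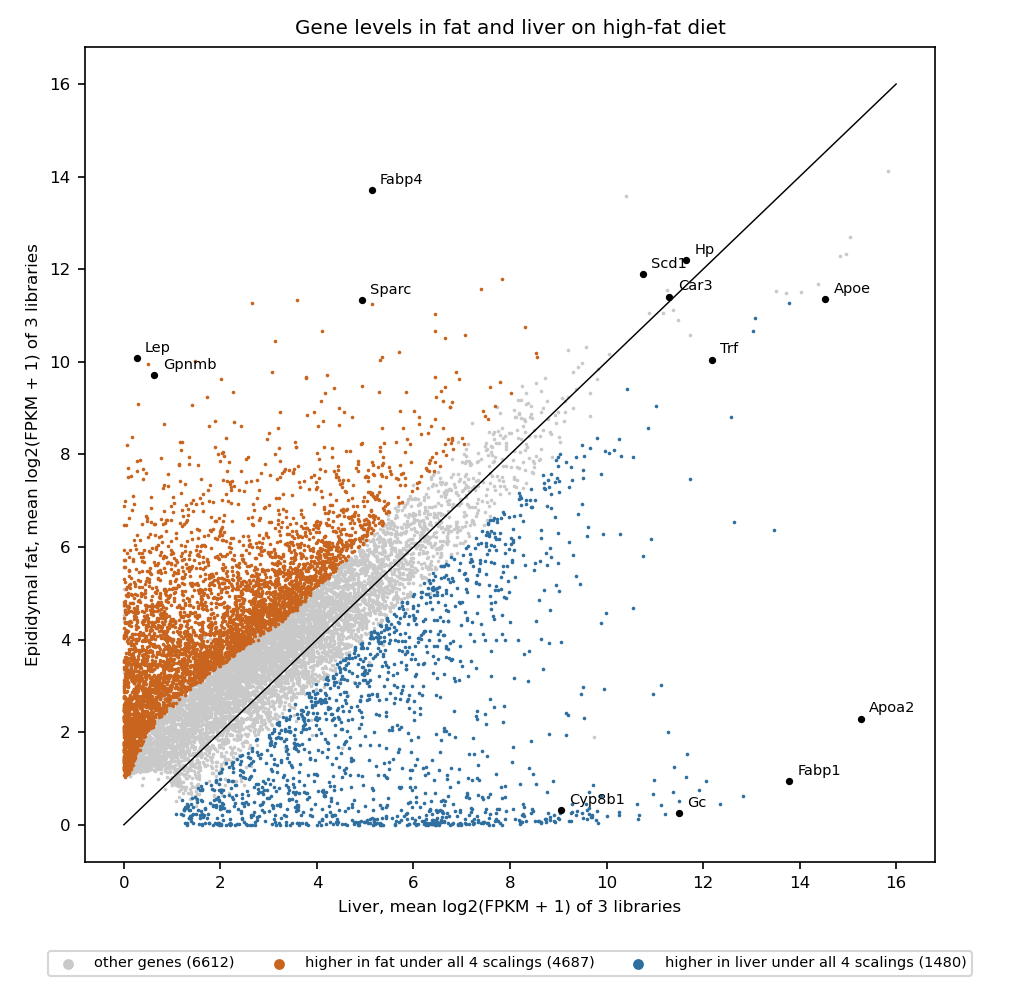
Each point is 1 of the 12779 genes, with its mean log2(FPKM + 1) over 3 libraries of liver on the horizontal axis and of epididymal fat on the vertical axis; the line marks equal levels. The 4687 orange and 1480 blue genes were held under all 4 scalings, and the leptin gene (Lep) and the apolipoprotein gene Apoa2 lie near opposite corners.

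The genes highest in fat relative to liver joined adipocyte hormones and lipid handling with macrophage genes. Lep, which encodes the satiety hormone leptin, stood at 899, 1196 and 1186 FPKM in the 3 adipose libraries and 0.723, 0 and 0 in liver, a difference of 9.82 ± 0.22 (adjusted p = 7.4e-10). Adipoq, which encodes adiponectin, stood at 1027, 1037 and 908 against 1.4, 0 and 0.174. Neither hormone gene exceeded 1.4 FPKM in a liver library. Fabp4, the fatty acid binding protein of adipocytes and macrophages, reached 14495, 13621 and 12038 FPKM in fat and 35.7, 30.2 and 36.7 in liver (8.57 ± 0.13, adjusted p = 5.8e-11), and was the most abundant nuclear-encoded gene of fat. Lpl, lipoprotein lipase, stood at 2008, 2563 and 2866 against 4.59, 5.57 and 5.84, and the droplet coat gene Plin1 at 343, 314 and 341 against 0.399, 0 and 0. Gpnmb, a glycoprotein of lipid-filled macrophages, stood at 874, 699 and 958 in fat and 0.688, 0.372 and 0.6 in liver, the third largest difference among the genes higher in fat (9.08 ± 0.15). The elastase gene Mmp12 stood at 969.8, 828 and 1378 against 1.27, 1.23 and 3.3, highest in adipose HFD 3. Retnla, a gene of alternatively activated macrophages and adipose stroma, stood at 408, 320.2 and 189.5 FPKM in fat and 0.163, 0 and 0 in liver. Sncg, Mest, Gsn and Cavin1 completed the 12 genes, at 335 to 2649.6 FPKM in fat.

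Most of the 12 genes highest in liver relative to fat encode secreted plasma or urinary proteins, and Fabp1 and Bhmt encode proteins of the cell interior. Apoa2, a structural protein of high-density lipoprotein, stood at 34988, 46210.0 and 37667 FPKM in liver and 3.42, 4.94 and 3.49 in fat, a difference of -12.97 ± 0.16 (adjusted p = 2.5e-11). Fabp1, the liver fatty acid binding protein, stood at 13424, 16868 and 12387 against 1.09, 1.21 and 0.531 (-12.84 ± 0.18). Every liver library lay far above every adipose library for both. Apoa1 stood at 6282, 9069 and 6645 against 0.495, 0.797 and 0.328, and Gc, the vitamin D binding protein, at 2596, 3036 and 3052 against 0.224, 0.173 and 0.193. Ttr, Apoc3, Bhmt and Ahsg were in the same range of differences, from -11.89 for Ttr to -10.61 for Ahsg. The major urinary protein genes Mup3, Mup9 and Mup20 and the antitrypsin gene Serpina1b also ranked among the top 12, but they belong to families of near-identical copies among which reads can be split, so their single values are uncertain. Mup9 stood at 5295, 3238 and 1435 in the 3 liver libraries. Albumin (Alb) was at 22791, 27895 and 0 in liver and 2.58, 3.5 and 2.17 in fat, and it did not pass (adjusted p = 0.19). The value of 0 stands in liver HFD 3 alone, and in the extract libraries the difference of Alb was -12.79.

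**Figure D2:**
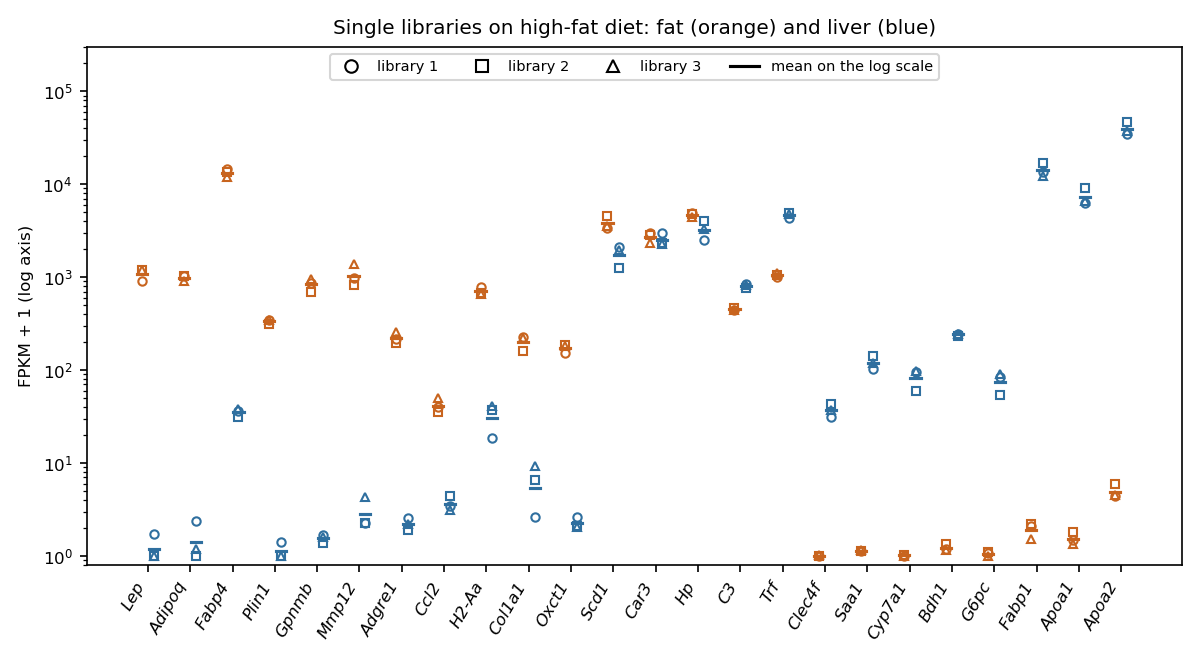
FPKM + 1 on a log axis for 24 genes named in the text, fat in orange and liver in blue, with a symbol for each library and a bar for the mean on the log scale. The genes Lep to Oxct1 lie far higher in fat and Clec4f to Apoa2 far higher in liver, while Scd1, Car3, Hp, C3 and Trf in the middle are abundant in both tissues.

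Sequence upstream of the start was examined for the genes that differed most. Of 563 genes higher in liver by log2 3 or more, 426 had an entry in the RefSeq table (build GRCm38.p6), with 512 starts; of 1112 genes as much higher in fat, 825 had one, with 1096 starts. The letters of an HNF1 element (either strand) occurred within 250 bases before 20 of the 512 liver starts (3.91%), 1 of the 1096 fat starts (0.0912%) and 0.371% of all 32851 starts. An HNF4 element (CAAAGTCCA) was found before 1.95% of liver starts, 0.639% of fat starts and 0.384% of all. The C/EBP letters TTGCNNAA, which read the same on both strands when the free bases are GC, stood before 17.0%, 9.49% and 9.56%, and the TATA box letters TATAAA before 17.4%, 8.94% and 12.4%. A PU.1 and ETS element (GAGGAAGT) had the opposite order, with 2.15% of liver starts, 4.38% of fat starts and 2.44% of all. A FOXA element (TGTTTAC) stood before 4.3%, 1.55% and 3.17%, and an NF-kB element before 1.17%, 1.09% and 0.98%. Over the 12754 starts of all genes kept, the shares were 0.259% for HNF1, 0.416% for HNF4, 7.94% for C/EBP and 6.88% for the TATA box. They were 2.52% for PU.1 and ETS, 2.29% for FOXA and 1.1% for NF-kB. Fat starts thus lay above the genes kept for the C/EBP and TATA box letters. Matches of letters are a description of these windows and not of binding. Liver genes with the HNF1 letters included Gc, G6pc (the enzyme that releases free glucose), Hc (complement C5), Igfbp1 and Cp.

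The 250 bases before the start are shown for 4 genes, 2 from the top of each tissue, with the matched letters in capitals. In the Gc sequence (chr5:89457899-89458148, minus strand) the capitals mark the HNF1 letters, whose first base lies 52 bases before the start. In Fabp1 (chr6:71199629-71199878, plus strand) they mark a C/EBP match and, 30 bases before the start, a TATA box. In Lep (chr6:29059971-29060220, plus strand) the C/EBP letters 55 bases before the start read the same on both strands. In Mmp12 (chr9:7344147-7344396, plus strand, 1 of 2 listed starts) the capitals mark the PU.1 and ETS letters on the minus strand, 88 bases before the start, and a C/EBP match.
Gc: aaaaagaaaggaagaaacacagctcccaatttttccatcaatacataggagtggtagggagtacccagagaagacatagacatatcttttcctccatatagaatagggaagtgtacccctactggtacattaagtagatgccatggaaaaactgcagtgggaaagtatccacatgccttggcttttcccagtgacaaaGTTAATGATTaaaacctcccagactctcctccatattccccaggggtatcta
Fabp1: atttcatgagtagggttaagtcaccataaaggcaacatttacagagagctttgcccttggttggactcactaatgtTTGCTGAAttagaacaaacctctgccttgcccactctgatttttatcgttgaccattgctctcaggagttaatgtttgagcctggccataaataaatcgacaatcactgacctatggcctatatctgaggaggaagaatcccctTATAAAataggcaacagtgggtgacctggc
Lep: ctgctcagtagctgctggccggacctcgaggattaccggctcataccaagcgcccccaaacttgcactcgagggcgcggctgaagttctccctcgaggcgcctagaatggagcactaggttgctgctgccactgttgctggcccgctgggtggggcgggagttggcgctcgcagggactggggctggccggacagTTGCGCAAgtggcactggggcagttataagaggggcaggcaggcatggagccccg
Mmp12: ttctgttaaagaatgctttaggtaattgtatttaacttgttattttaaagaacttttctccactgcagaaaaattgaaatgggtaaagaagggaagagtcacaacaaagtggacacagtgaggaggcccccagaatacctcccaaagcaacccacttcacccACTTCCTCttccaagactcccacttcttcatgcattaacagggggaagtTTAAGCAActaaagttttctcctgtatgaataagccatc

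Macrophage genes were higher in obese fat than in obese liver. All 15 genes of a general macrophage list passed, 15 higher in fat and 13 of them held, with a median difference of 4.23 against 0.95 over all genes; 11 were measured in both tissues and all 11 were higher in fat. Adgre1, which encodes the surface antigen F4/80, stood at 213, 195 and 259 in fat and 1.58, 0.876 and 1.21 in liver (6.65 ± 0.16, adjusted p = 5.1e-10). Lyz2, lysozyme of macrophages, stood at 2684, 1914 and 2757 against 25.8, 40.1 and 38.3. Csf1r, Itgam, Cybb and Laptm5 differed by 4.69, 5.98, 4.89 and 6.18. In each of these genes the lowest adipose library exceeded the highest liver library. Summed over the list, fat held 3013 to 4117 FPKM and liver 60.95 to 86.18.

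A list of 15 genes of lipid-laden macrophages had a median difference of 5.68, with 14 higher in fat (13 held) and 0 higher in liver. Of the 15, 3 were kept through fat alone, and of the 11 measured in both tissues 10 were higher in fat. Trem2, a lipid receptor of these cells, stood at 338, 232 and 365 against 0.592, 2.19 and 1.44 (7.05 ± 0.27). Lgals3, galectin 3, and Ctsk, cathepsin K, differed by 7.33 and 7.15. In Trem2 and Lgals3 liver HFD 1 was the lowest liver library. The exception was Spp1, osteopontin, at 66.3, 49.7 and 99.8 in fat and 48.9, 73.1 and 109 in liver, with overlapping libraries (difference -0.08 ± 0.35, adjusted p = 0.83). Some members, such as Lpl, are also adipocyte genes.

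Genes of Kupffer cells split by member. Of 12 genes, 5 were higher in fat (4 held) and 6 in liver (5 held), with a median of -0.47. Clec4f, a lectin specific to Kupffer cells, was listed at 0 in adipose HFD 1 and 2 and stood at 30.5, 41.8 and 36.1 in liver. Cd5l, a secreted inhibitor of macrophage death, stood at 24.8, 26.4 and 24.2 in liver and 1.68, 1.12 and 2.02 in fat (-3.34 ± 0.15). The complement C1q chains, made by many macrophages, had the other order, with C1qb at 491, 360.1 and 504 in fat and 18.1, 29.9 and 30.02 in liver (4.09 ± 0.21), and Folr2, a folate receptor of resident macrophages, differed by 4.26. Marco did not pass (adjusted p = 0.26).

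Chemokines are secreted signals that recruit leukocytes. Of 18 kept, 14 were higher in fat (10 held) and 3 in liver (2 held), and 8 were kept through fat alone. Of the 9 measured in both tissues, 5 were higher in fat and 3 in liver, against 63.4% and 17.1% over all genes so measured. Ccl2, which draws monocytes, stood at 39, 34.3 and 49.5 in fat and 2.48, 3.42 and 2.09 in liver (3.52 ± 0.18, adjusted p = 7.1e-08). Ccl6 stood at 316, 235 and 313 against 2.71, 2.51 and 2.93, and Ccl9 at 205, 168 and 211 against 10.1, 9.53 and 11.7. The eotaxin gene Ccl11 and the monocyte chemokine Ccl8 reached 21.7 to 48.1 FPKM in fat and were listed at 0 in liver HFD 2 and 3. Ccl5, a T cell chemokine, did not pass, at 7.25, 7.76 and 6.53 against 1.38, 6.4 and 4.45 (adjusted p = 0.085), and liver HFD 1 was the low library. The receptor gene Ccr2 stood at 42.8, 42.8 and 33.4 against 0.78, 1.47 and 1.93.

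Of 17 cytokine genes in the table, 11 were kept, 9 of them higher in fat (5 held) and 2 higher in liver. Of these 11, 5 were kept through fat alone and 1 through liver alone. The 4 measured in both tissues split 3 to fat and 1 to liver, against 63.4% and 17.1% over all genes so measured. Tnf stood at 2.11, 1.91 and 2.19 in fat and 0.164, 0.384 and 0.214 in liver, with no overlap, but its difference of 1.30 ± 0.12 was not held. Il1b was under the level of keeping, at 0.429, 0.305 and 0.104 against 0.328, 0.761 and 0.481 FPKM. Tgfb1, which drives matrix deposition, stood at 57.2, 45.4 and 58.9 against 2.43, 3.59 and 2.72 (3.81 ± 0.16). Il1rn, the antagonist of interleukin 1, reached 56.9, 58.2 and 74.3 in fat and 4.18, 6.85 and 5.05 in liver. Il18 was higher in liver, 8.06, 12 and 9.12 against 3.86, 3.29 and 2.22. By FPKM the antagonist was the highest gene of the list in adipose HFD 2 and 3, and in adipose HFD 1 it lay just under Tgfb1.

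Of 26 innate receptors and NF-kB genes, 25 were higher in fat (18 held) and 1, Tlr5, in liver, against 66.7% (36.7% held) and 17.6% over all genes. Among the 12 measured in both tissues, 11 were higher in fat, against 63.4% over all genes so measured. Tlr8 and Tlr13, endosomal sensors of RNA, had the largest differences of the list, 4.99 ± 0.18 and 4.76 ± 0.15. Tlr4, the receptor for bacterial lipopolysaccharide, stood at 11.9, 17.4 and 16.1 against 0.433, 0.252 and 0.258. Adipose HFD 1 was the lowest adipose library for Tlr4, and all 3 lay above liver.

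All 9 kept genes of MHC class II antigen presentation were higher in fat, 7 of them held, with a median of 4.36. Of these 9, 3 were kept through fat alone, and all 6 measured in both tissues were higher in fat. H2-Aa stood at 791, 676 and 664 in fat and 17.4, 36.5 and 40.0 in liver, and the invariant chain gene Cd74 at 1406, 1041 and 1159 against 32.6, 61.9 and 65.7 (4.52 ± 0.26, adjusted p = 5.6e-07). Liver HFD 1 was the lowest liver library for H2-Aa, H2-Ab1, H2-Eb1 and Cd74. Lymphocyte genes were scarce in both tissues, and 16 of 20 T, NK and B cell genes in the table were not kept. The other 4, Nkg7, Klrd1, Gzma and Cd79b, were higher in fat by 0.58 to 0.88, but none was held and all 4 turned to liver with quantile normalization. Mast cell proteases were detected in fat only by level, with Tpsb2 at 9.39, 6.56 and 13.3 and 0, 0.0745 and 0 in liver, Cma1 at 6.52, 6.41 and 11.9 and 0, 0.0683 and 0.0609, and Cpa3 and Mcpt4 listed at 0 in all 3 liver libraries.

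Interferon-induced genes had no common direction. Of 16 genes, all measured in both tissues, 7 were higher in fat and 7 in liver, with 3 and 5 held. Gbp2 stood at 24.2, 26.3 and 22.9 in fat and 2.09, 2.5 and 1.8 in liver, while Isg15 stood at 7.92, 6.8 and 6.45 against 29.7, 54.4 and 22.1 and Usp18 at 2.21, 2.4 and 2.55 against 19.6, 18.7 and 15. Isg15 was highest in liver HFD 2. Without adipose HFD 1 and liver HFD 2 the counts were 6 and 5.

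Of 22 acute phase genes, 17 were higher in liver, all held, and 4 in fat, of which 2 were held, with a median of -6.12. Of the 22, 11 were kept through liver alone, so their direction was fixed by the filter. Among the 10 measured in both tissues, 5 were higher in liver and 4 in fat, against 17.1% and 63.4% over all genes so measured. Saa1, serum amyloid A, stood at 102, 140.5 and 118 in liver and 0.131, 0.115 and 0.15 in fat (-6.73 ± 0.14). Its relative Saa3, made by macrophages and adipocytes, had the opposite order, 101, 102 and 89.3 in fat and 7.81, 20.3 and 6.89 in liver (3.11 ± 0.37, adjusted p = 0.00017), with liver HFD 2 the highest liver library. Haptoglobin (Hp) was abundant in both, at 4841, 4824 and 4480.0 against 2488, 3987 and 3294, and its difference of 0.56 ± 0.18 was not held and turned to liver with median ratios (-0.28). Lbp, the lipopolysaccharide binding protein, was higher in fat, 205, 202 and 224 against 28.1, 40.5 and 45.5. Fga, Fgb and Fgg, the 3 chains of fibrinogen, stood at 512 to 1623 FPKM in liver and under 1 in fat. Lcn2 overlapped between tissues, at 24, 24.2 and 12.2 against 12.4, 38.5 and 33.2 (adjusted p = 0.51). The iron hormone gene Hamp was listed at 0 in fat and stood at 483, 152 and 159.9 in liver, highest in liver HFD 1.

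Complement was shared out by component. Of 24 genes, 6 were higher in fat (5 held) and 16 in liver (13 held). Of the 24, 8 were kept through liver alone and 1 through fat alone. Of the 15 measured in both tissues, 5 were higher in fat and 8 in liver, against 63.4% and 17.1% over all genes so measured. The C1q chains named above and C7 and Cfp were higher in fat. Of the membrane attack complex and the lectin pathway, C8a, C8g, Hc, Mbl1, Mbl2 and Masp2 were higher in liver, at differences from -6.41 for C8a to -8.24 for Mbl2. C3, the hub of the cascade, was abundant in both, 445, 467 and 442 in fat and 844, 761 and 830.0 in liver, and its difference of -0.84 ± 0.12 was not held. C4b overlapped, at 225, 245 and 231 against 215, 328 and 266 (adjusted p = 0.29). Cfd, adipsin, is an adipocyte product; it stood at 337, 349 and 251 in fat and 193, 162 and 54.7 in liver, a difference of 1.36 ± 0.50 (adjusted p = 0.045) that was not held, and liver HFD 3 was the low library. The Cfd call was also lost with no filter on low levels (adjusted p = 0.055) and without adipose HFD 1, 2 or 3 or liver HFD 2 (adjusted p = 0.103, 0.113, 0.069 and 0.066), and without liver HFD 3 the difference was 0.81.

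Of 20 coagulation genes kept, 12 were higher in liver, all held, and 7 in fat, of which 6 were held. Of these 20, 11 were kept through liver alone. Of the 6 measured in both tissues, 4 were higher in fat and 1 in liver, near the 63.4% and 17.1% over all genes so measured. Prothrombin (F2) stood at 808, 736 and 770.2 in liver and 0.115, 0.123 and 0.0307 in fat. Serpinc1, Kng1, Plg, Proc and F12 were also higher in liver, F12 being the lowest of them at 172, 202 and 189 and listed at 0 in fat. Plau and Plat, activators of plasminogen, were higher in fat, with Plau at 126, 128 and 153 against 0.93, 0.949 and 1.25. F7, the factor that starts the extrinsic pathway, was at 61, 32 and 38.9 in fat and 32.7, 30.6 and 24.2 in liver, with overlapping libraries (difference 0.53 ± 0.23, adjusted p = 0.052, and -0.28 with median ratios).

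Matrix genes were higher in fat without exception in these lists. All 17 kept collagens were higher in fat, 16 of them held, with a median of 5.21, and so were all 12 measured in both tissues. Col1a1 stood at 227, 159.8 and 218 in fat and 1.6, 5.5 and 8.27 in liver (5.21 ± 0.49, adjusted p = 0.00012). Col3a1 stood at 895, 715 and 818 against 7.15, 14.3 and 19.6, and Col6a2, a microfibrillar chain around adipocytes, at 280.1, 229.7 and 229.7 against 0.963, 1.58 and 2.2. Liver HFD 1 was the lowest liver library for all 3, and no adipose library came near the liver levels. All 23 kept genes of other matrix proteins and enzymes were higher in fat, 21 of them held, among them Sparc at 2456, 2486 and 2762 against 23.8, 29.8 and 36, Lox, Thbs1, Fbn1 and Timp2. Of these 23, 9 were kept through fat alone, and all 11 measured in both tissues were higher in fat. Fibroblast genes (Pdgfra, Dpt, Pi16, Vim) were higher in fat by 3.40 to 6.56. Of the 11 kept genes of the fibroblast and stellate list, 8 were higher in fat (7 held) and 3 in liver (3 held). Those 3 were the stellate genes Reln, Hand2 and Lhx2, with Reln at 10.7, 9.09 and 11.3 in liver and 0.942, 1.27 and 0.841 in fat. Lrat, Des and Acta2, also stellate genes of the list, were not among the genes higher in liver. All 4 genes of the list measured in both tissues were higher in fat. Of 14 endothelial genes, 13 were higher in fat (12 held), against 66.7% and 36.7% over all genes. Among them was Pecam1 at 74.9, 81 and 71.2 against 2.75, 2.02 and 2.37, and the sinusoidal gene Stab2 did not pass (adjusted p = 0.23).

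Lysosomal genes were higher in fat in 22 of 24 cases, 19 of them held, against 66.7% and 36.7% over all genes. Of the 22 measured in both tissues, 20 were higher in fat, against 63.4% over all genes so measured. Ctsd, cathepsin D, stood at 3201, 2561 and 3453 in fat and 163, 167 and 174 in liver, and Ctss, cathepsin S, at 902, 719 and 913 against 12.9, 18.1 and 23.2 (5.50 ± 0.20). Npc2, which hands cholesterol out of the lysosome, had nearly the same level in all 3 adipose libraries, 419, 418 and 419, and in all 3 liver libraries, 16.8, 16.3 and 16.5. The partner membrane protein Npc1 did not pass, 22.2, 23.8 and 28 against 23.1, 22.3 and 25.3 (adjusted p = 0.68). The proton pump subunit Atp6v0d2 differed by 5.40 ± 0.12 and the broadly expressed subunit Atp6v1b2 by 4.02 ± 0.14. Cell cycle genes were also higher in fat, 20 of 21 and all 20 held, against 66.7% and 36.7% over all genes. Without adipose HFD 1 and liver HFD 2 the count was also 20. Of the 21, 7 were kept through fat alone. Of the 9 measured in both tissues, 8 were higher in fat and 0 in liver, against 63.4% and 17.1% over all genes so measured. Mki67, a marker of dividing cells, stood at 7.64, 8.41 and 7.78 against 0.203, 0.348 and 0.588. Top2a stood at 19.8, 13.8 and 16 against 0.267, 0.618 and 0.449.

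Lipid droplet genes divided by protein. Of 14 genes, 7 were higher in fat and 7 in liver, with 5 and 6 held. Of the 14, 2 were kept through liver alone and 1 through fat alone. Of the 9 measured in both tissues, 6 were higher in fat and 3 in liver. Cidec, which fuses droplets in adipocytes, stood at 1692, 1465 and 1698 in fat and 71.8, 76.7 and 115 in liver (4.21 ± 0.18). Plin4 stood at 346, 427 and 375 against 31.5, 33.8 and 59, highest in liver HFD 3 among liver libraries. Cideb, its counterpart in hepatocytes, stood at 293, 382 and 331 in liver and 1.48, 1.68 and 0.901 in fat, and Hsd17b13, a hepatocyte droplet enzyme, at 233, 299.9 and 371 against 0, 0.0497 and 0.0669. Fitm1, which helps droplets form, also belonged to liver, 81.4, 86.4 and 62.8 against 0.159, 0.138 and 0. Plin2, which coats droplets in most cells, was abundant in both at 1299, 1038 and 1336 and 619.6, 541 and 597, and its difference of 1.06 ± 0.14 was not held.

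Genes for the breakdown of stored triglyceride were higher in fat in 10 of 11 cases, 9 of them held, against 66.7% and 36.7% over all genes. Of the 11, 2 were kept through fat alone, and of the 8 measured in both tissues 7 were higher in fat and 1 in liver. Pnpla2, the first lipase of the chain, stood at 708, 614 and 646 against 53.6, 58.8 and 58.3 (3.50 ± 0.12, adjusted p = 4.2e-09), and Lipe, hormone-sensitive lipase, at 417, 354 and 366 against 8.91, 9.26 and 6.56. The glycerol channels split, with Aqp7 at 79.1, 70.3 and 73.5 in fat and 0.47, 0.789 and 0.895 in liver and Aqp9 at 271, 206 and 227 in liver and 8.03, 8.13 and 1.54 in fat. Adrb3, the adrenergic receptor of adipocytes, was highest in adipose HFD 1, 92, 56.9 and 41.4, against 9.02, 10.1 and 9.89 in liver. Pnpla3 was likewise higher in fat, 55.9, 56.7 and 41.8 against 0.0765, 0.115 and 0.249.

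Of 14 genes of fatty acid synthesis, 10 were higher in fat (5 held) and 2 in liver (2 held). The list's median of 1.05 lay near the 0.95 over all genes, and its share held for fat near the 36.7% over all genes. Fasn, fatty acid synthase, stood at 393, 319 and 326 in fat and 49.6, 72.4 and 98.5 in liver (2.27 ± 0.23, adjusted p = 1.1e-05). Acly and Acaca, which make its substrates, differed by 2.55 and 1.96. Scd1 was abundant in both, 3389, 4571 and 3545 against 2099.5, 1238 and 1958, and its difference of 1.14 ± 0.22 was not held, while its relative Scd2 stood at 143, 181 and 154 against 1.05, 0.647 and 0.941. Elovl5, an elongase of polyunsaturated acids, and Mlxipl, which encodes the glucose sensor ChREBP, were higher in liver, with differences of -3.16 and -3.48. Of 14 genes of triglyceride synthesis, 8 were higher in fat (5 held), 3 in liver (2 held) and 3 did not pass. The median of this list, 0.84, also lay near the 0.95 over all genes, and its share held for fat near the 36.7%. Among the 3 that did not pass was Agpat2, at 179, 148 and 143 against 156, 156 and 152. Dgat1 stood at 109.6, 87 and 76.7 against 20.9, 29.2 and 24.4, whereas Gk, glycerol kinase, was higher in liver, 60.5, 50.7 and 72 against 8.92, 15.7 and 9.34.

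Genes of fatty acid uptake were split by member. Of 17 kept, 9 were higher in fat (6 held), 4 in liver (4 held) and 4 did not pass. The list's median of 0.96 lay near the 0.95 over all genes. Of the 12 measured in both tissues, 8 were higher in fat and 1 in liver, near the 63.4% and 17.1% over all genes so measured. Cd36, the scavenger receptor for fatty acids, stood at 1865, 2176 and 2254 in fat and 89.1, 74.1 and 97.5 in liver (4.58 ± 0.14). Slc27a2 and Slc27a5 stood at 863, 769 and 889.9 and 503, 658 and 432 in liver and at under 2 FPKM in fat. Acsl1, which traps fatty acids as acyl-CoA, had overlapping levels, 367, 333 and 306 against 462, 336 and 393 (adjusted p = 0.16).

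Genes of fatty acid oxidation leaned to liver: of 21 genes, 18 were higher in liver (13 held) and 0 in fat. Of the 19 measured in both tissues, 16 were higher in liver. Acaa1b and Ehhadh, of the peroxisomal path, differed by -4.75 and -3.62. Ehhadh stood at 282, 219.6 and 263 in liver and 22.6, 19.2 and 17.5 in fat. The mitochondrial thiolase Acaa2 differed by -2.69, and Hadha and Hadhb, the 2 chains of the trifunctional protein, did not pass, at 127, 116 and 121 against 128, 90.6 and 118 and 142, 149 and 151 against 154, 116 and 116. Ppara, the nuclear receptor that turns these genes on, stood at 40.8, 39.1 and 53.6 in liver and 1.39, 1.95 and 0.758 in fat. Respiratory chain subunits leaned the same way by smaller amounts, with 25 of 31 higher in liver (17 held), 2 in fat (0 held) and a median of -1.02.

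Ketone body genes were split by member. Bdh1, which interconverts the main ketone bodies, stood at 246, 233 and 243 in liver and 0.179, 0.337 and 0.169 in fat (-7.62 ± 0.12, adjusted p = 5.6e-11). Oxct1, which activates ketone bodies for use, stood at 150.1, 187 and 178 in fat and 1.62, 1.11 and 1.02 in liver (6.27 ± 0.15). No library of either tissue crossed over in these genes. In all, 5 of 7 were higher in liver and 2 in fat, all held.

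Lipoprotein genes were higher in liver in 18 of 21 cases, all held, and in 10 of the 13 measured in both tissues. Apob, the scaffold of very-low-density lipoprotein, stood at 963, 829 and 865 in liver and 0.0546, 0.151 and 0.0346 in fat. Apoe was abundant in fat too, at 3009, 2452 and 2415 against 23135, 25755 and 22470.0 (-3.18 ± 0.15), as was the iron carrier transferrin (Trf), at 1005, 1065 and 1107 against 4319, 4873 and 4741. Apoa4 spread widely in liver, 314, 694 and 1058. Angptl4, Pltp and Gpihbp1 were the 3 genes higher in fat, by 1.95 to 2.60.

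Of 14 bile acid genes, 13 were higher in liver, all held, and 1, Klb, was higher in fat and was not held. Of the 14, 12 were kept through liver alone, and the 2 measured in both tissues split 1 and 1. Cyp7a1, the rate-limiting enzyme, stood at 95.2, 58.8 and 97.4 in liver and was listed at 0 in adipose HFD 1 and 3. Cyp8b1 stood at 579.5, 524 and 488 against 0.282, 0.221 and 0.248 (-8.73 ± 0.12), and the transporter Slc10a1 at 435, 347 and 386 against 0.0382, 0.068 and 0.0921. For nitrogen, all 19 kept genes of the urea cycle and amino acid breakdown were higher in liver and held, with a median of -6.53, among them Otc at 283, 298 and 312 and Mat1a at 1262, 1176 and 1212. Of these 19, 12 had no adipose library at 1 FPKM, and all 7 measured in both tissues were higher in liver.

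Genes of glucose production were higher in liver in 10 of 13 cases, 9 of them held. Of the 13, 3 were kept through liver alone, and of the 8 measured in both tissues 5 were higher in liver and 3 in fat. G6pc stood at 82.5, 53.3 and 89.4 in liver and 0.0755, 0.091 and 0 in fat (-6.14 ± 0.19). Pck1, which feeds glucose production in liver and glyceride synthesis in fat, stood at 482, 362 and 588 in liver and 266, 246 and 227 in fat, and its difference of -0.93 ± 0.18 was not held. Fbp1 was at 515, 383 and 458 in liver and 18.6, 1.14 and 0.387 in fat, where the high library was adipose HFD 1, the one with testis RNA; the part of that RNA in this value was not tested. Genes of cholesterol synthesis were split, 6 higher in fat (4 held) and 8 in liver (5 held) of 22, with Hmgcs1 at 122, 113 and 112 against 89.1, 116 and 129 (adjusted p = 0.67).

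The insulin receptor did not pass the test. Insr stood at 11.5, 15.8 and 12.6 in fat and 14.3, 12.2 and 15.4 in liver (difference -0.07 ± 0.15, adjusted p = 0.66). Slc2a4, the insulin-driven glucose transporter, stood at 25.6, 28.8 and 20.0 against 0.103, 0.201 and 0.159. Gcgr, the glucagon receptor, stood at 230.1, 258 and 223 in liver and 0.403, 0.753 and 0.387 in fat (-7.30 ± 0.14), and Fgfr1, the receptor of the hormone FGF21, at 83.4, 75.3 and 78.7 against 1.26, 1.47 and 2.26. Fgf21 itself was higher in liver, 15.2, 22 and 21.9 against 1.05, 0.669 and 0.694. Adipor2, a receptor for adiponectin, overlapped, at 152, 168 and 139 against 156, 139 and 146 (adjusted p = 0.67). The leptin receptor gene Lepr was not kept, at 0.657, 1.1 and 0.961 in fat and 0.862, 0.886 and 0.689 in liver.

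All 15 kept liver factors were higher in liver and held, none of them measured in both tissues at 1 FPKM in all 6 libraries. Hnf4a stood at 98.5, 94.5 and 98.9 in liver and 1.1, 0.443 and 0.0143 in fat (-6.08 ± 0.23), where adipose HFD 1 was the highest, and Nr1h4, the bile acid receptor FXR, at 89.1, 96.7 and 95.1 against 0.326, 0.472 and 0.492. Of 15 fat and myeloid factors, 11 were higher in fat (11 held), 2 in liver (1 held) and 2 did not pass. Of these 15, 6 were kept through fat alone. Of the 8 measured in both tissues, 4 were higher in fat and 2 in liver, against 63.4% and 17.1% over all genes so measured. Pparg, the main factor of adipocytes, stood at 63.3, 62.7 and 51.8 against 13.3, 15.3 and 17.1 (1.90 ± 0.14, adjusted p = 8.4e-07), and Spi1, which encodes PU.1 of myeloid cells, at 97.9, 78.3 and 108 against 1.85, 3.78 and 4.18. Cebpa overlapped, at 175, 138 and 172 against 141, 137 and 129.7 (adjusted p = 0.11).

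Of 24 glutathione transferase and NRF2 genes, 18 were higher in liver (17 held), among them Gsta3 at 1141, 937 and 975 against 21.2, 26 and 21.5 and Mgst1 at 6133, 6656 and 5605 against 458, 476 and 416, and 4 in fat (1 held). Gsta and Gstm genes have close copies among which reads can be split. Of 31 ribosomal protein genes, 21 were higher in fat as deposited, but 5 were held. The list's median of 0.48 lay under the 0.95 over all genes and turned to -0.36 with median ratios. Citrate cycle and branched-chain genes were split 10 higher in fat (2 held) and 10 in liver (5 held) of 27, with Idh3a higher in fat by 2.005 and Suclg1 higher in liver (-1.67). Iron genes were split 5 and 6 of 14, all held, with the ferritin chain Fth1 at 2253, 1907 and 2240.1 against 2179, 2461 and 2269.5 (adjusted p = 0.44).

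**Figure D3:**
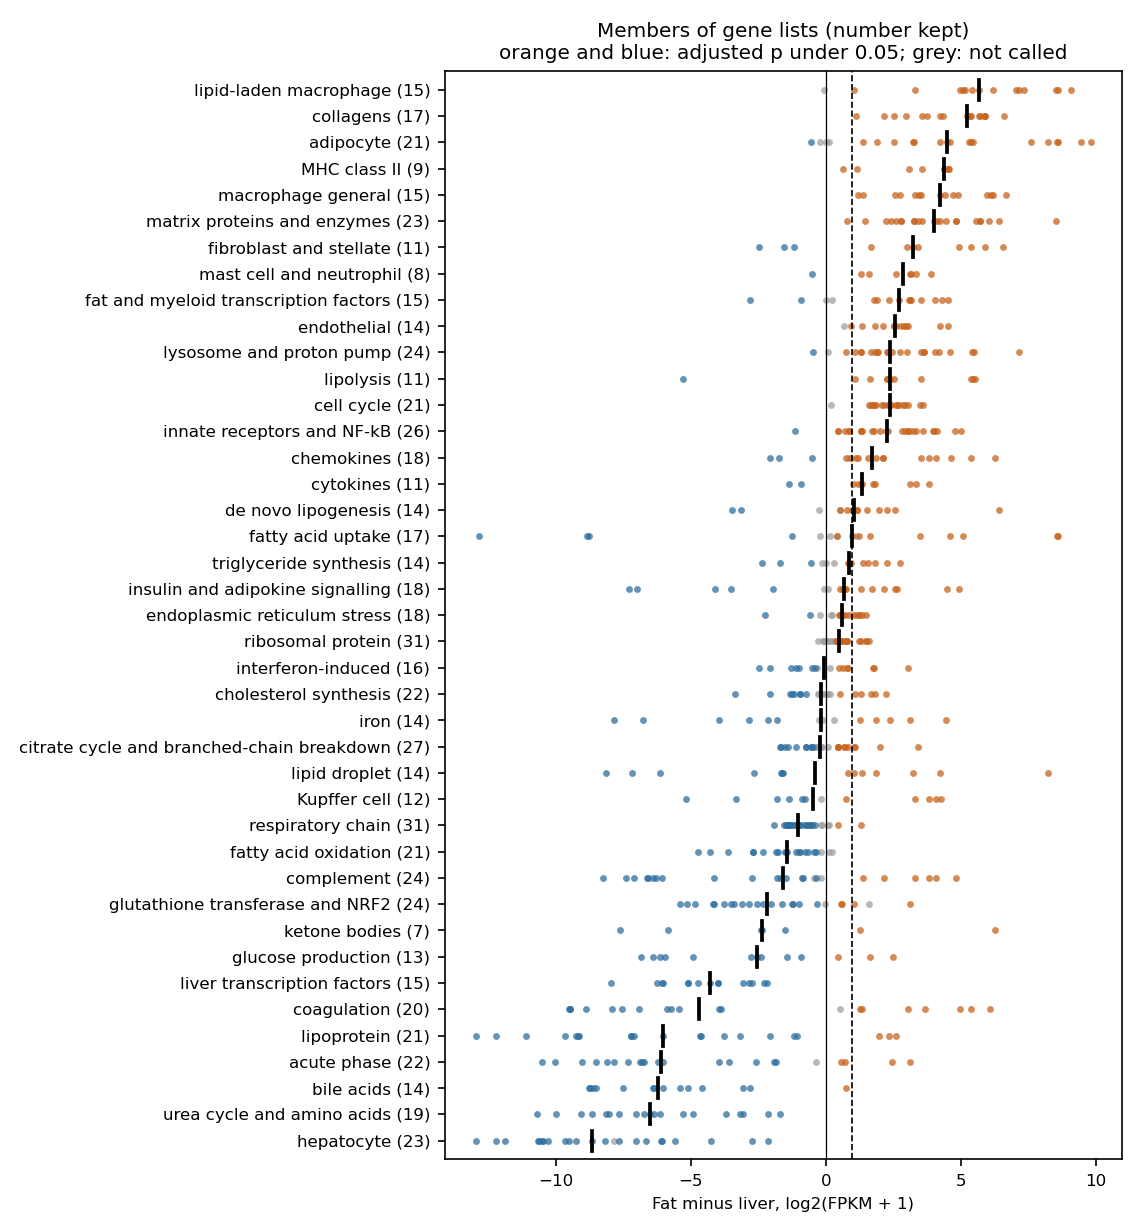
Each point is a kept gene of the list named at the left, at its fat minus liver difference in log2(FPKM + 1); orange and blue points passed an adjusted p of 0.05, bars are list medians, and the dashed line is the median of 0.95 over all 12779 genes. Medians run from 5.68 for the lipid-laden macrophage list to -8.67 for hepatocyte markers.

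Related genes were compared in 25 pairs, chosen with 1 member expected in fat and 1 in liver. The choice favours a split, so the counts do not tell how often related genes divide between the tissues. Of the 25 pairs, 23 had both members kept. In 13 of these the first was higher in fat and the second in liver, and in 11 both were held. At pyruvate kinase, Pkm stood at 389, 286 and 389.5 in fat and 5.15, 8.88 and 7.37 in liver, and Pklr at 1.01, 1.62 and 0.023 and 43.6, 44.5 and 75.9. At phosphofructokinase both genes were higher in fat, Pfkp by 4.50 and Pfkl by 2.15. Both members were also higher in fat for stearoyl-CoA desaturase, acetyl-CoA carboxylase, perilipin and the branched-chain aminotransferase, in 5 pairs in all, but the differences of Scd1, Acacb, Plin2 and Bcat2 were not held. In 1 pair both were higher in liver (Igfbp4 and Igfbp1), and in 1 the order was crossed: Pck1 was higher in liver, not held, and Pck2, the mitochondrial form, in fat at 12.7, 12.6 and 12.2 against 1.28, 1.36 and 1.62. Car3 itself, known as an adipocyte enzyme, had nearly the same level in both tissues, 3013, 2836 and 2347 in fat and 3005, 2333 and 2291 in liver (0.11 ± 0.16, adjusted p = 0.55), and the sign turned with median ratios (-0.73).

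**Figure D4:**
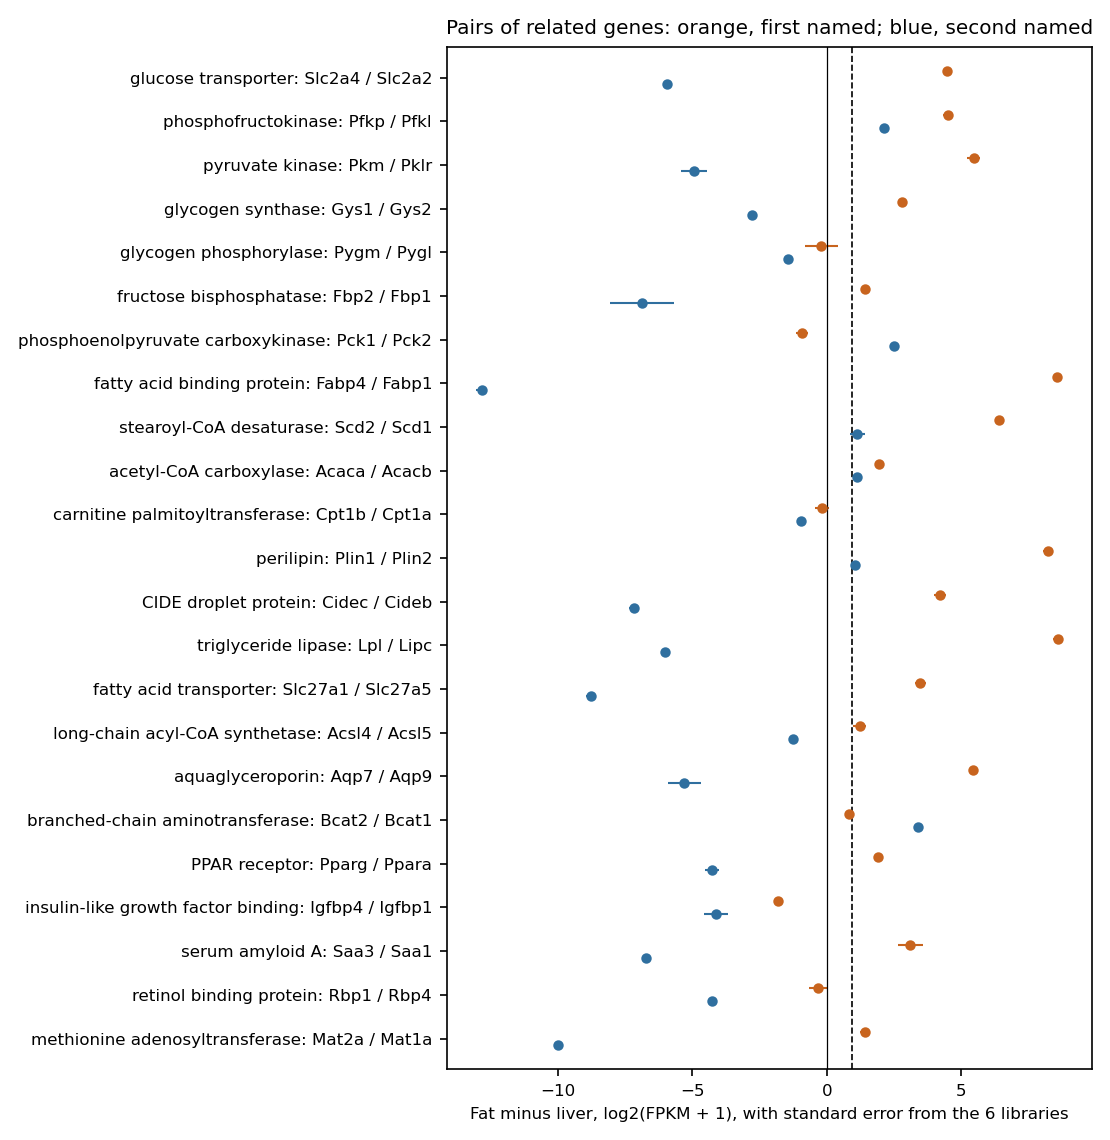
Fat minus liver difference in log2(FPKM + 1), with SE from the 6 libraries, for 23 pairs of related genes; the dashed line is the median of 0.95 over all genes. In 13 pairs the orange gene lies right of 0 and the blue gene left of it, both past the test.

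The same comparison was made in the libraries of the extract diet, which share no library with the HFD group. There, 9981 of the same 12779 genes (78.1%) passed, with a median of 0.81. Of the 10774 genes called on high-fat diet, 9293 (86.3%) passed in the same direction and 30 in the opposite one. Lep differed by 10.23 and Gpnmb by 8.28 in the extract libraries. Apoa2 differed by -13.32 and Fabp1 by -12.47. Fgf21, at -3.51 on high-fat diet, was at -0.49 with extract, and Scd1 moved from 1.14 to 3.69; neither change between diets was tested here.

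Whether tissues kept their order without fat feeding was asked with the normal diet libraries, leaving out adipose ND 1, which held much testis and epididymis RNA. The difference between the tissues changed with diet in 3438 of 12779 genes (26.9%). The order itself turned in 137 genes (1.07%), where the tissues differed past the test one way on normal diet and the other way on high-fat diet in a limma fit of 11 libraries. Of these, 55 (0.43%) turned to fat and 82 (0.642%) to liver. The count was 39 with adipose ND 1 in the fit and 219 without adipose ND 3, where the lone adipose ND library was assumed to vary like the other groups. Adipose ND 3 also held testis RNA, with testis markers summing to 4149 FPKM and 21 of 24 at 10 FPKM or more, against 237.7 in adipose ND 2; its part in these results was not tested.

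Genes that turned to fat included lipases and an interleukin antagonist. Il1rn was at 0.7 and 0.154 in adipose ND 2 and 3 and 2.86, 4.23 and 5.82 in liver on normal diet, against 56.9, 58.2 and 74.3 and 4.18, 6.85 and 5.05 on high-fat diet, a contrast of 5.23 ± 0.36 (adjusted p = 2.9e-06). Lipa, the acid lipase of the lysosome, went from 36.4 and 31.2 in fat and 133, 107 and 139 in liver to 365, 379 and 439 and 91, 62.9 and 92.3 (4.13 ± 0.25). Nceh1, which splits cholesteryl esters, went from 2.65 and 4.54 and 20.8, 16.3 and 16.7 to 57.4, 64 and 76.5 and 13.3, 9.53 and 11.9. Anpep and Pik3ap1 had contrasts of 3.96 ± 0.21 and 4.62 ± 0.42. In these 5 genes the 3 adipose libraries lay above all 3 liver libraries on high-fat diet and the 2 adipose libraries below them on normal diet. F7 had the largest contrast, 5.46 ± 0.31, from 0.285 and 0.297 in fat and 35.1, 42.7 and 37.1 in liver on normal diet to the overlapping levels given above, which passed in the fit of 11 libraries and not in that of 6.

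Of the 6 genes named that turned to liver, 3 act on lipids. Mogat1, an acyltransferase of triglyceride synthesis, went from 38.5 and 29.96 in fat and 2.56, 8.23 and 3.32 in liver on normal diet to 4.08, 5.44 and 4.98 and 14.7, 16.1 and 23.5 on high-fat diet (-4.44 ± 0.47, adjusted p = 7.2e-05). Ces1d, a carboxylesterase with triglyceride lipase activity, went from 1542 and 1113 and 259, 391 and 325 to 202, 276 and 200.5 and 381, 353 and 349.7. Its contrast was -2.72 ± 0.28, and its difference on high-fat diet was not held. Cidea, a droplet gene of brown fat and fatty liver, went from 2.92 and 3.82 and 0.26, 0.113 and 0 to 2.55, 0.878 and 3.81 and 15.4, 7.66 and 6.11, and its difference on high-fat diet was not held. Amy1, Orm3 and Crygn had contrasts of -2.37 ± 0.24, -4.18 ± 0.39 and -3.21 ± 0.32. On high-fat diet Crygn was listed at 0 in fat and stood at 2.37, 2.31 and 1.64 FPKM in liver. It was kept through liver alone, so its direction on that diet was fixed by the filter. Orm3 was also low on high-fat diet, at 0.703, 1.27 and 0.86 in fat and 6, 6.03 and 7.07 in liver. In the extract libraries the differences were 0.73 for Mogat1, 0.21 for Orm3, -0.19 for Ces1d and -0.56 for Crygn, and none of these passed. Those of Cidea and Amy1, -1.41 and -0.65, passed higher in liver. Of the genes that turned to fat, F7 was at -0.76 with extract and did not pass. Il1rn, Pik3ap1, Nceh1, Lipa and Anpep passed higher in fat there.

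**Figure D5:**
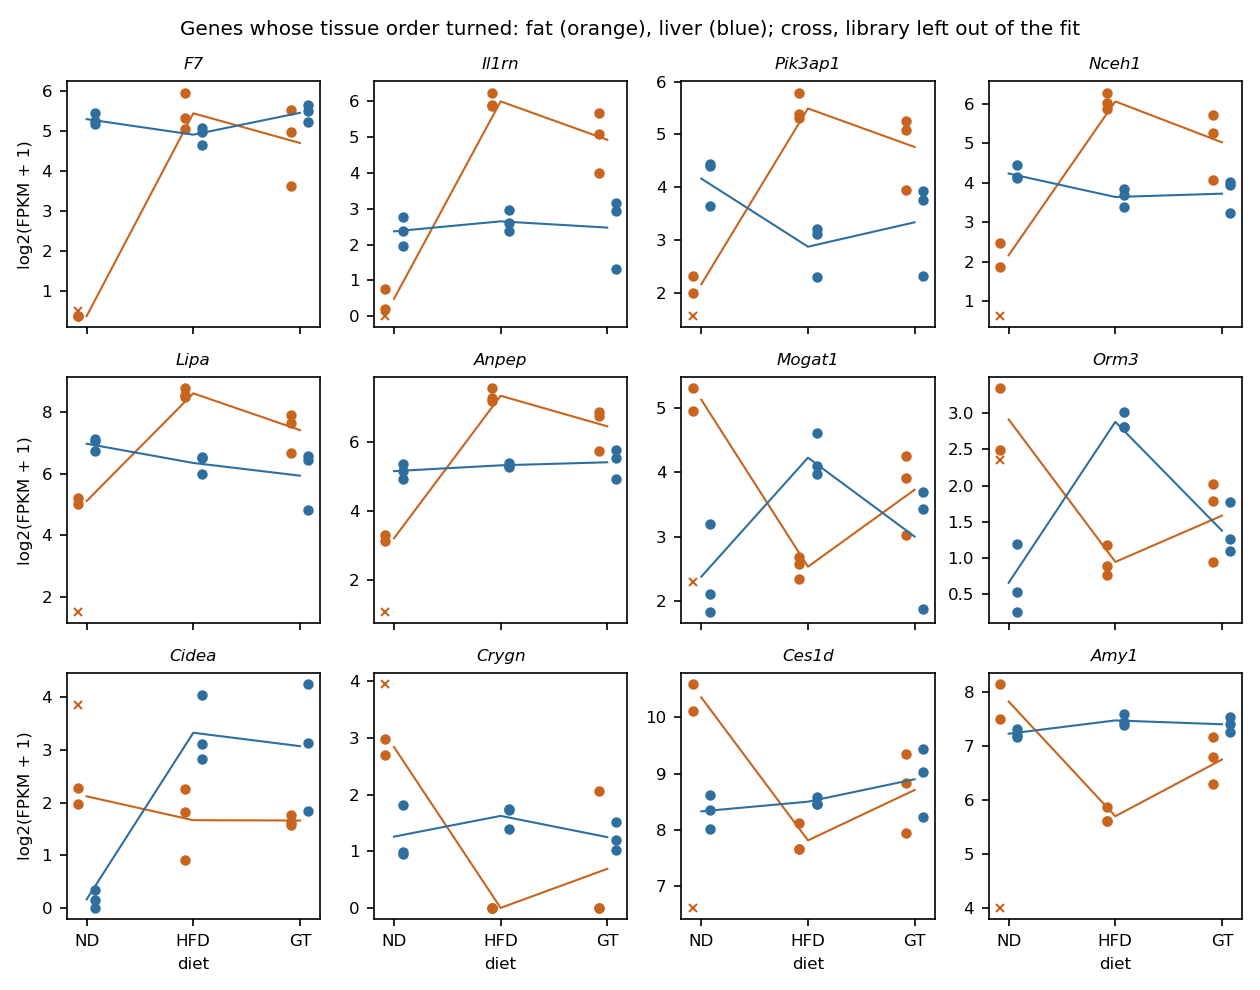
Level of 12 genes in log2(FPKM + 1) by diet (ND, normal; HFD, high-fat; GT, high-fat with extract), each point a library, orange for fat and blue for liver, lines through group means; the cross is adipose ND 1, left out of the fit and of the mean. With FPKM as deposited, the orange and blue lines cross between ND and HFD in each panel; for F7 the sign on HFD turned with median ratios.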

How the data were processed

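Polyadenylated RNA of 18 libraries was sequenced, 3 for each of 2 tissues and 3 diets. FPKM values were deposited by the authors as 1 table of 23474 genes. CASAVA 1.8.2, STAR 2.4.0 and Cufflinks 2.1.1 are named in the submitters' processing notes, and no genome build is given there. Symbols were found for 22671 gene identifiers, and 803 had none. Genes at 1 FPKM or more in at least 3 of the 6 high-fat libraries were compared with limma 3.58.1 in R 4.3.3 on log2(FPKM + 1), with trend and robust options and a Benjamini-Hochberg adjusted p of 0.05. Alternatives changed the added constant, filter, scaling, replicate block, variance prior, libraries and call rule. On simulated data, 72% of differences of log2 1 and 99% of log2 2 were recovered for this comparison, with 100 genes each. There were 7 false calls. Only these genes differed in the simulation, all toward fat and with no difference in scaling between the tissues. In the data 84.3% of genes passed, so the rates do not carry over to them. Counts and motifs were computed in Python 3.11.15 with pandas 2.3.3 and NumPy 2.4.6.

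Named were up to 12 genes each way by size whose libraries did not overlap, up to 6 called and 3 uncalled members of a list, 25 pairs, 30 preset genes, and 6 genes each way for tissue order. The members and the 48 lists were chosen with earlier results of these data known. Tlr5, Hp, Lbp, Trf, Apoe, C7, Cfp, Plau, Plat, Reln, Hand2, Lhx2, Lrat, Des, Angptl4, Pltp, Gpihbp1 and Klb were named after their values were seen. Values of 0 beside high levels in the other libraries of a tissue may be failed estimates and are given by library. Some genes are not reported here.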

Additional observations from a re-analysis of the deposited data

Results flagged for a closer look

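The difference between fat and liver changed with diet in the 12 genes below, by a limma contrast of high-fat against normal diet over 11 libraries. The order of the tissues turned past the test in that fit, with FPKM as deposited. On high-fat diet the F7 libraries overlapped and F7 did not pass in the fit of 6 libraries (adjusted p = 0.052), where its difference was -0.28 with median ratios, and the differences of Ces1d and Cidea were not held under all 4 scalings. On the log2(FPKM + 1) scale the tissue difference on high-fat diet minus that on normal diet was 5.46 for F7, 5.23 for Il1rn, 4.62 for Pik3ap1, 4.48 for Nceh1, 4.13 for Lipa and 3.96 for Anpep, all toward fat. Toward liver it was -4.44 for Mogat1, -4.18 for Orm3, -3.62 for Cidea, -3.21 for Crygn, -2.72 for Ces1d and -2.37 for Amy1. Normal-diet fat was represented by 2 libraries, of which adipose ND 3 also held testis RNA. Crygn was kept through liver alone, at 1.64 to 2.37 FPKM on high-fat diet, so the filter fixed its direction there.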

How the results depend on the processing

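The number of genes called between fat and liver on high-fat diet ran from 10478 to 10625 when each library was left out, against 10774. With equal FPKM totals 1489 genes were higher in liver, with quantile normalization 5138 were higher in fat and 4489 in liver, and with median ratios 4106 were higher in liver. Tested against a difference of log2 1 (limma treat), 5729 genes passed, 4576 in fat and 1153 in liver. With the replicate number as a block, 10545 genes passed (8378 and 2167), with extract 9835, and 139 genes turned order. The labels do not pair the tissues by number, and same-numbered libraries did not deviate together (correlations across genes of -0.14, -0.32 and 0.048), nor did every library correlate best with its own number. The count of genes that turned was 39 with adipose ND 1 and ran from 104 to 219 when each library was left out.

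Signs turned for genes near equality. With equal totals the differences were 0.43 for Acsl1, 0.48 for C4b, 0.55 for Fth1, 0.55 for Insr, 0.26 for Lcn2, 0.20 for Marco and 0.57 for Spp1. With quantile normalization they were 0.13 for Acsl1, 0.12 for C4b, -0.27 for Ccl5, -0.55 for Cd79b, 0.75 for Fth1, -0.47 for Gzma, -0.37 for Klb, -0.41 for Klrd1, -0.046 for Nkg7, -0.59 for Npc1 and -0.46 for Stab2. With median ratios they were -0.77 for Adipor2, -0.82 for Agpat2, -0.73 for Car3, -0.59 for Cebpa, -0.28 for F7, -0.71 for Hadha, -0.62 for Hadhb, -0.76 for Hmgcs1, -0.28 for Hp and -0.74 for Npc1. When each library was left out, signs also turned for Agpat2 (-0.087 to 0.074), Insr (-0.195 to 0.016), Adipor2 (-0.011 to 0.12), Spp1 (-0.37 to 0.20), Npc1 (-0.032 to 0.13), Hmgcs1 (-0.082 to 0.18) and Hadha (-0.023 to 0.23). Without adipose HFD 1 and liver HFD 2 together, Agpat2 was at -0.080, Car3 at -0.024 and Hadha at -0.054. List medians turned with equal totals for interferon-induced (0.43), lipid droplet (0.26), cholesterol (0.47), citrate cycle (0.43) and iron (0.48) genes, and with median ratios for insulin and adipokine (-0.049), ribosomal (-0.36), endoplasmic reticulum stress (-0.19) and erythroid (-0.58) genes. The interferon median was 0.10 without adipose HFD 1 and liver HFD 2. The cause of these turns was not tested. Depth is unknown, so no counting error can be given.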
